A study of Mus musculus with 12 samples.

Results

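The complement components described here are 9 genes, C1qa, C1qb, C1qc, C2, C4b, C3, Cfb, Cfp and C3ar1, read by symbol from an RNA-seq table of 22923 distinct gene symbols in proximal hind limb skeletal muscle of mice. Each gene had 1 row, and the rule that picked the rows used symbols alone. The series held 12 samples of FVB male mice (FVB/N in the study's methods) at 22 weeks of age, in 4 groups of 3. The groups are named WT chow, WT high fat, KO chow and KO high fat by genotype and diet, chow being the normal diet. WT mice were littermate controls from heterozygous breeding, whose sample titles read Flox. KO mice lacked both αB-crystallin (Cryab) and HspB2 (Hspb2) in all tissues, so the deletion was neither restricted to muscle nor to 1 of the 2 genes. The study asked how this deletion bears on the response to a high fat diet. It describes its samples as independent and does not say whether each came from 1 mouse, so p-values measure the spread between these samples.

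Complement is a cascade of secreted proteins that tag material for removal and call in immune cells. The classical pathway starts when C1q, built from the products of C1qa, C1qb and C1qc, binds its target, after which C2 and C4 form an enzyme that cleaves C3. The alternative pathway uses factor B, encoded by Cfb, and properdin, encoded by Cfp, to cleave more C3, and C3ar1 encodes the receptor for the C3a fragment. Liver makes most circulating C3, C4 and factor B, whereas C1q and properdin come largely from myeloid cells, and fibroblasts and adipocytes also make C3. FVB/N mice are a strain deficient in C5, the component that follows C3 in the cascade.

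The levels are FPKM, fragment counts scaled by transcript length and by the size of the library. Groups follow the sample titles. Cryab was 412 to 837 FPKM in the WT samples and 0.845 to 1.75 FPKM in the KO samples so grouped, while the separate genotype label conflicted with the title in 6 samples. Summed skeletal muscle markers were 38000 to 69230 FPKM in every library, although Myh4, the fast IIB myosin, was listed at 0 in all of them. WT high fat replicate 1 had the highest summed neutrophil markers (1171 FPKM, against 2.19 to 451.5 FPKM in the other libraries) and the lowest summed adipocyte markers (44.5 FPKM). WT chow replicate 2 and KO chow replicates 1 and 3 had summed B cell markers of 48.0 to 55.1 FPKM, against at most 5.71 FPKM elsewhere. Their summed T cell markers were 31.3 to 35.5 FPKM, against at most 1.74 FPKM elsewhere. Summed adipocyte markers were 44.5 to 374.8 FPKM in WT and 367 to 723.7 FPKM in KO samples. Summed macrophage markers were 110.7 to 229.9 FPKM in WT and 176.6 to 363 FPKM in KO samples.

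C1qa, C1qb and C1qc are neighbours on chromosome 4 (GRCm38, GENCODE M21), all on the minus strand, with C1qb at chr4:136880129-136886187, C1qc at chr4:136889804-136893065 and C1qa at chr4:136895917-136898803. Only 3616 bases separate C1qb from C1qc and 2851 bases separate C1qc from C1qa. Another 3 lie in the major histocompatibility region of chromosome 17, C4b at chr17:34728380-34743882, Cfb at chr17:34856374-34862518 and C2 at chr17:34862604-34898265, with 85 bases between Cfb and C2. C3 lies at chr17:57203970-57228136, Cfp at chrX:20925454-20931555 and C3ar1 at chr6:122847138-122856161. All 9 are protein-coding genes of the minus strand.

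RefSeq (GRCm38.p6) gave the 250 bases before the transcription start for 5 of the 9 members. Shown are those of C1qb and C1qc, whose levels moved together across the samples, and of C3, the most abundant member in every group, all 5′ to 3′ on the minus strand. They cover chr4:136886201-136886450, chr4:136892915-136893164 and chr17:57228137-57228386. The C1qc window runs past chr4:136893065, the gene's start in GENCODE M21, so part of it lies within the gene as placed above. Positions are counted from the RefSeq start. Capitals mark GAGGAA, a core bound by factors of the PU.1 family, in C1qb and C1qc, and TTNCGCAA, a core bound by C/EBP factors, in C3, each searched on both strands.
C1qb: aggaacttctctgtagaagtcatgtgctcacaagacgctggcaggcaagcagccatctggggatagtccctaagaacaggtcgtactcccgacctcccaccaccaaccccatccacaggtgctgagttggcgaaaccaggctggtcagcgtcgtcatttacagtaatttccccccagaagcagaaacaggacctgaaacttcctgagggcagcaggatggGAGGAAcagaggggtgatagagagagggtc
C1qc: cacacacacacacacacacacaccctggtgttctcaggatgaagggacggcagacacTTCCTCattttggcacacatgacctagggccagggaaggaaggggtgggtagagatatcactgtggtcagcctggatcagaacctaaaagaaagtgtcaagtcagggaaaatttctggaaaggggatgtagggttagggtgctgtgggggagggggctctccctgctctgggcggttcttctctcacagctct
C3: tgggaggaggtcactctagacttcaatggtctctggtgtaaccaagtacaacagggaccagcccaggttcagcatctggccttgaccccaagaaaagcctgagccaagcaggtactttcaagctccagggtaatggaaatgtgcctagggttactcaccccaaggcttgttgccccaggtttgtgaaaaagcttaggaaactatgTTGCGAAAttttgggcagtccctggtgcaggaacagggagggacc
Counted from the start, with the base before it as -1, the C1qb match lay at -30 to -25, the C1qc match, on the opposite strand as TTCCTC, at -193 to -188, and the C3 match, as TTGCGAAA, at -45 to -38. Of 32851 mouse promoter windows of this length, 23.2% held GAGGAA and 0.670% held TTNCGCAA. The same windows were searched for TGACTCA, a core bound by AP-1 factors, which C3ar1 held at -22 to -16 and 4.46% of windows held, and for the interferon-stimulated response element, which none of the 5 members' windows held and 2.98% of windows held. The motifs were chosen after the windows had been seen, and a match is a description of the letters only.

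In both WT groups the order of the mean levels, which FPKM allows across genes of unequal length, began with C3, C1qa, C1qc, C1qb and C4b and ended with C3ar1. There, neighbours in that order overlapped between samples, except that C3ar1 lay below C2 in every group. In KO mice on high fat diet C4b, at 35.7 FPKM, came just before C1qb, at 35.2 FPKM, a difference within their spread.

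The 3 C1q genes were expressed at high levels in muscle of both genotypes and had higher means in KO mice on either diet. C1qa was 33.2, 42.2 and 32.9 FPKM in the WT chow samples, 11.4, 35.6 and 27.6 FPKM in the WT high fat samples, 66.5, 51.3 and 62.4 FPKM in the KO chow samples and 49.9, 78.2 and 32.2 FPKM in the KO high fat samples. The KO samples all lay above the WT samples on normal chow, whereas on high fat diet KO replicate 3 lay below WT replicate 2. C1qb had means of 22.9 ± 3.15, 16.3 ± 8.59, 37.4 ± 4.63 and 35.2 ± 14.9 FPKM (SD, n = 3) in the same order of groups. C1qc had means of 27.7 ± 4.95, 19.0 ± 9.24, 46.8 ± 4.90 and 43.4 ± 19.9 FPKM (SD, n = 3). For both genes, as for C1qa, the genotypes did not overlap on normal chow and overlapped on high fat diet. The genes kept a nearly fixed proportion, with 1.42 to 1.68 C1qa per C1qb and 1.21 to 1.35 C1qa per C1qc over all 12 libraries. On the log2(FPKM + 1) scale, KO exceeded WT, averaged over the diets, by 0.92 ± 0.27 for C1qa, 0.91 ± 0.27 for C1qb and 0.96 ± 0.27 for C1qc (± SE). Their adjusted p-values in limma, with Benjamini-Hochberg adjustment over all genes tested, were 0.0798, 0.0832 and 0.0749, above the threshold of 0.05. In bulk muscle, more cells of a type and more RNA per cell cannot be told apart.

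C2 and C4b, whose products form the classical C3 convertase, were the only members in which every KO sample exceeded every WT sample over both diets. C2 was 2.87, 6.37 and 6.15 FPKM in the WT chow samples, 1.75, 3.93 and 4.65 FPKM in the WT high fat samples, 14.9, 7.91 and 10.2 FPKM in the KO chow samples and 6.73, 10.9 and 6.87 FPKM in the KO high fat samples. C4b was 8.51, 23.3 and 22.9 FPKM, then 1.16, 18.7 and 20.0 FPKM, then 42.8, 25.1 and 32.2 FPKM, and 32.6, 48.9 and 25.7 FPKM in the same order. The gap was narrow for both, since the highest WT value of C4b was 23.3 FPKM and the lowest KO value 25.1 FPKM. Over all genes tested, 1.72% had every KO sample above every WT sample in this way. The averaged genotype difference was 1.03 ± 0.23 for C2 (limma adjusted p = 0.0593) and 1.41 ± 0.52 for C4b (limma adjusted p = 0.127). C4b had the widest range of the members, 42.0-fold between its lowest and highest library, and WT high fat replicate 1 alone was 16.6-fold below the mean of the other 2 samples of its group. The near-copy C4a is 95.97% identical to C4b over 99.98% of the C4b transcript, so the division of reads between them is uncertain. C4b was listed at 9.99 to 16.6 times the FPKM of C4a. C2 is overlapped on the other strand by Zbtb12, and C2 and Cfb by the readthrough gene Gm20547, which had no row of its own.

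C3, the point at which the pathways meet, had the highest mean of the members in each group, although its samples overlapped those of C1qa in each. C3 was 29.5, 58.1 and 45.6 FPKM in the WT chow samples, 8.77, 36.5 and 32.3 FPKM in the WT high fat samples, 104.8, 60.1 and 101.4 FPKM in the KO chow samples and 63.9, 64.8 and 57.0 FPKM in the KO high fat samples. The genotypes did not overlap within either diet, but the lowest KO sample on high fat diet fell just below the highest WT sample on normal chow. The averaged genotype difference was 1.22 ± 0.31, with a limma adjusted p of 0.0671.

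Among the alternative pathway genes, Cfp rose in KO mice. Cfp was 7.45, 10.1 and 7.87 FPKM in the WT chow samples, 3.59, 5.69 and 6.36 FPKM in the WT high fat samples, 16.2, 11.8 and 15.7 FPKM in the KO chow samples and 10.4, 15.7 and 8.76 FPKM in the KO high fat samples. KO and WT samples did not overlap within either diet. The averaged difference was 0.86 ± 0.16, with a limma adjusted p of 0.0435. Cfb was 2.85, 10.4 and 9.11 FPKM in the WT chow samples, 1.71, 6.69 and 11.2 FPKM in the WT high fat samples, 18.6, 9.19 and 17.0 FPKM in the KO chow samples and 15.8, 21.5 and 19.6 FPKM in the KO high fat samples. The genotypes overlapped on normal chow through KO replicate 2 and did not overlap on high fat diet. The averaged Cfb difference was 1.33 ± 0.37, with a limma adjusted p of 0.0763.

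The receptor gene C3ar1 was the least abundant member and also rose in KO mice. C3ar1 was 1.12, 1.78 and 0.952 FPKM in the WT chow samples, 0.539, 1.09 and 1.56 FPKM in the WT high fat samples, 2.13, 1.67 and 2.15 FPKM in the KO chow samples and 3.55, 4.91 and 2.96 FPKM in the KO high fat samples. The 3 KO samples on high fat diet stood above the other 9 samples. The averaged genotype difference was 0.82 ± 0.15, with a limma adjusted p of 0.0418. At these levels the added 1 FPKM compresses the differences, and with 0.1 in its place the difference was 1.23.

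**Figure D1:**
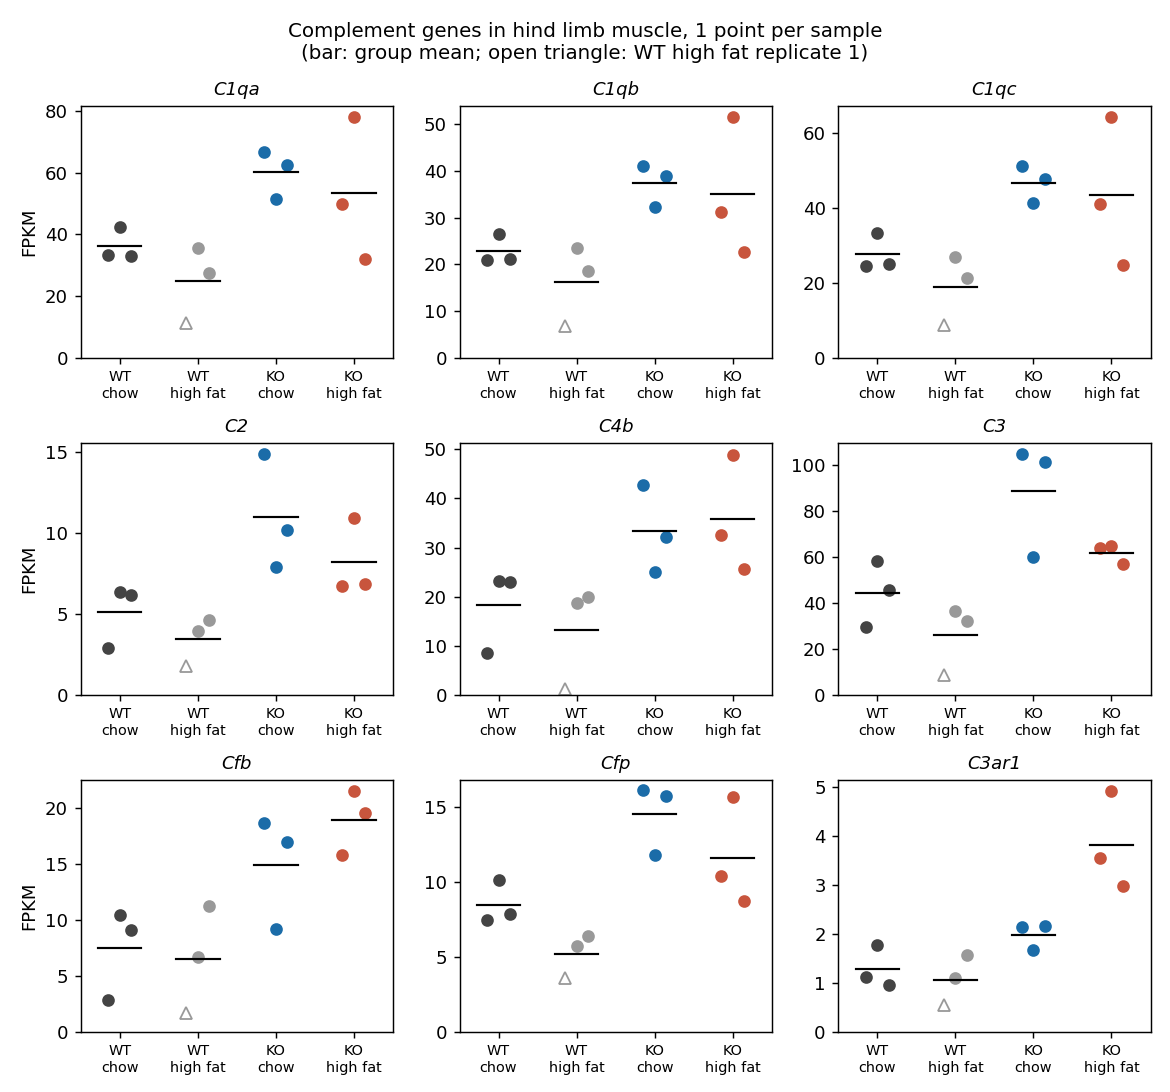
FPKM of each complement gene in each sample by group (linear axes from 0, points are samples, bars are group means, the open triangle is WT high fat replicate 1). WT high fat replicate 1 was the lowest of the 12 samples for all 9 genes, and the C3ar1 points of KO mice on high fat diet, 2.96 to 4.91 FPKM, stand above all others.

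All 9 members had higher means in KO than in WT mice on each diet, and 2 of them, Cfp and C3ar1, passed the test when the genotype difference was averaged over the diets. In that comparison 0.862% of the 11945 genes tested had an adjusted p under 0.05 in limma. All 9 had an unadjusted limma p under 0.05 with a positive difference, as did 13.1% of all genes, and the median difference of the members was 0.96 against -0.02 over all genes. The calls of Cfp and C3ar1 were close to the threshold. They were lost when WT chow replicate 1 or 3, WT high fat replicate 1 or 2, KO chow replicate 1 or 3, or KO high fat replicate 1 or 2 was left out, with limma adjusted p of 0.0595 to 0.126 for C3ar1 and 0.0596 to 0.126 for Cfp. Their differences then remained between 0.72 and 0.83 for C3ar1 and between 0.75 and 0.90 for Cfp. Leaving out WT high fat replicate 3 or KO chow replicate 2 gave 5 calls each, with C2, C3 and Cfb added.

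On high fat diet alone, the KO means were 2.15 to 3.59 times the WT means. The differences on the log2(FPKM + 1) scale ran from 1.01 for Cfp to 1.88 for C4b, and that of C3ar1 was 1.23 ± 0.21. None passed the test in limma, where 0.109% of all genes did, and the lowest adjusted p-values were 0.0599 for C3ar1 and 0.0826 for Cfp. All 9 had an unadjusted limma p under 0.05 with a positive difference, against 9.79% of all genes. KO and WT samples did not overlap for 6 members, C2, C4b, C3, Cfb, Cfp and C3ar1, against 13.0% of all genes. Much of the size of these differences came with WT high fat replicate 1. Without it, the C4b difference was 0.81 in place of 1.88, C3 was 0.83 in place of 1.45, C1qb was 0.64 in place of 1.14 and C3ar1 was 1.04 in place of 1.23. The summed macrophage markers of that library were 127.4 FPKM, of which Lyz2, a lysozyme that neutrophils also express, made up 99.6 FPKM. Its Csf1r was 4.22 FPKM against 10.7 FPKM in WT high fat replicate 2, its Cd68 3.11 against 7.54 FPKM, its Cd163 0.902 against 3.40 FPKM and its Mrc1 1.71 against 5.63 FPKM, so that these 4 markers were low in the same library as the members. The part of its macrophage, neutrophil and adipocyte content in these values was not tested. Leaving out WT high fat replicate 3 in place of it brought C3ar1 past the threshold (difference 1.40, limma adjusted p = 0.0296).

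On normal chow, the KO means were 1.55 to 2.14 times the WT means. The differences ran from 0.40 ± 0.21 for C3ar1 to 1.01 ± 0.53 for Cfb, and none passed the test in limma, where 0.0586% of all genes did. An unadjusted limma p under 0.05 with a positive difference was seen for 3 members, C2, C3 and Cfp, against 6.73% of all genes. KO and WT samples did not overlap for 7 members, all but Cfb and C3ar1, against 8.15% of all genes. Libraries with high B cell and T cell markers made up 2 of the 3 KO and 1 of the 3 WT samples here. In a comparison without them, chosen after the data had been seen, all 9 differences remained positive, from 0.39 for C3ar1 to 0.79 for C4b. That left 2 WT samples and 1 KO sample, whose spread is assumed to be like that of the other groups, and the limma adjusted p was 0.997 for each member.

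**Figure D2:**
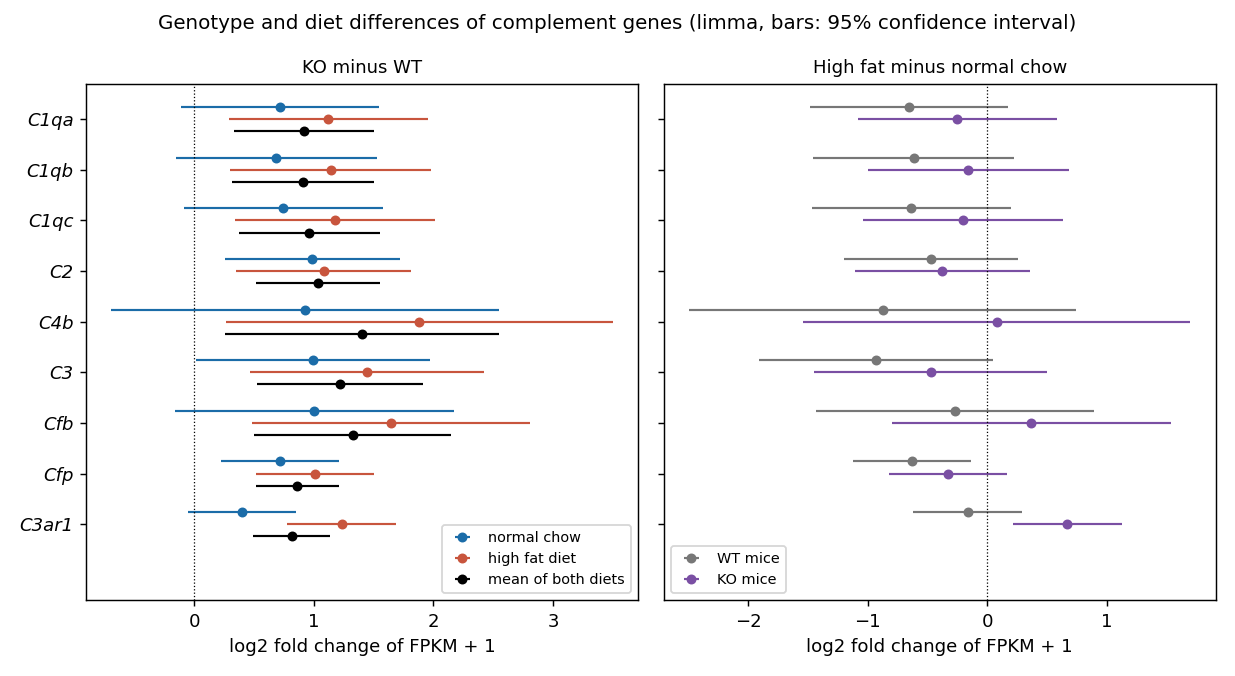
Differences of the 9 genes on the log2(FPKM + 1) scale, KO minus WT on the left and high fat minus normal chow on the right (points are limma estimates, bars their 95% confidence intervals, the dotted line is no difference). The genotype estimates are positive for all 9 genes on both diets, from 0.40 to 1.88, and the diet estimates in KO mice lie on both sides of 0, from -0.47 for C3 to 0.67 for C3ar1.

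The diet comparisons gave no call among the members. In WT mice all 9 had lower means on high fat diet, with a median difference of -0.63 against -0.01 over all genes, but none passed the test in limma, where 0.10% of all genes did. Cfp was the 1 member with an unadjusted limma p under 0.05, against 3.70% of all genes in this direction, at -0.63 ± 0.22 (limma adjusted p = 0.406). Cfp was also the 1 member whose samples on normal chow all lay above those on high fat diet, against 6.88% of all genes. These differences again leaned on WT high fat replicate 1, without which C4b was 0.20 and Cfb 0.34 in place of -0.87 and -0.27. In KO mice the median difference was -0.20 against 0.03 over all genes, and no member passed the test in limma, where 0% of all genes did. C3ar1 had the largest difference of the members there. Its mean was 1.98 ± 0.27 FPKM on normal chow and 3.81 ± 1.00 FPKM on high fat diet (SD, n = 3), a difference of 0.67 ± 0.21 with an unadjusted limma p of 0.00773 and an adjusted p of 0.396. No other member had an unadjusted limma p under 0.05 in KO mice, where 6.56% of all genes did in the positive direction. High fat samples lay above chow samples for C3ar1 alone, against 10.7% of all genes.

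With the diets averaged over the genotypes, no member passed the test in limma (0.0586% of all genes did). C3, at -0.70 ± 0.31 (limma adjusted p = 0.355), and Cfp, at -0.48 ± 0.16 (limma adjusted p = 0.259), had an unadjusted p under 0.05, against 5.94% of all genes in this direction. The interaction, the diet difference in KO mice minus that in WT mice, was positive for all 9 members, from 0.10 for C2 to 0.96 for C4b, and none passed the test in limma, nor did any other gene (0%). C3ar1 had the only unadjusted limma p under 0.05 among the members, against 3.55% of all genes in this direction, with an interaction of 0.83 ± 0.29 and an adjusted p of 0.672. Without WT high fat replicate 1 the interactions of C1qa, C1qb, C1qc, C2, C4b and C3 were negative, from -0.22 to -0.01, and that of C3ar1 was 0.64.

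Across the 12 libraries the members moved together. The Pearson correlation of log2(FPKM + 1) had a median of 0.89 over the 36 pairs, from 0.68 to 1.00, and a median of 0.84 once the group means were removed. These are descriptions over libraries that differ in their cell content. The 6 genes most like the mean of C1qa, C1qb and C1qc were Csf1r, the receptor for macrophage colony-stimulating factor (r = 0.98), Stab1 (r = 0.98), Lrrc17 (r = 0.98), the joint row of Ang and Rnase4 (r = 0.98), Trpv4 (r = 0.97) and Mrc1, the mannose receptor of macrophages (r = 0.97). The 6 most like C3 were Cmklr1, the chemerin receptor (r = 0.99), Fam46a (r = 0.97), Abca1, a cholesterol exporter (r = 0.97), Svep1 (r = 0.97), Igf1 (r = 0.97) and Man1a (r = 0.96).

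Set against macrophage markers, C1qa kept close to Csf1r and C3ar1 to Cd68, the lysosomal macrophage marker. The ratio of C1qa to Csf1r varied 1.51-fold over the 12 libraries and that of C3ar1 to Cd68 varied 1.5-fold, against 2.57-fold for C3ar1 to Csf1r and 3.17-fold for C1qa to Cd68. On normal chow C1qa per Csf1r was 2.597 to 2.735 in WT and 2.756 to 2.804 in KO samples. On high fat diet it was 2.702 to 3.334 in WT and 2.207 to 2.705 in KO samples. Csf1r itself was 0.98 higher in KO mice averaged over the diets (limma adjusted p = 0.0563). Of the 9 macrophage markers tested, 8 had an unadjusted limma p under 0.05 with a positive difference, against 13.1% of all genes. C3ar1 per Csf1r was 0.169 to 0.203 in the KO high fat samples and 0.0888 to 0.0966 in the KO chow samples. The WT samples also lay below the KO high fat samples, at 0.0791 to 0.110 on chow and 0.102 to 0.161 on high fat diet. C3ar1 per Cd68 stayed at 0.116 to 0.173 over all 12 libraries, with group means of 0.140, 0.151, 0.137 and 0.146. C1qa per Cd68 had a mean of 4.14 ± 0.70 in the KO chow and 1.98 ± 0.44 in the KO high fat group (SD, n = 3), and the samples did not overlap. Cd68 was 10.4 to 18.5 FPKM in the first group and 20.5 to 40.1 FPKM in the second. Adgre1, listed under its older symbol Emr1 and encoding F4/80, was the 1 macrophage marker that passed the averaged genotype test (0.89, limma adjusted p = 0.0418). The ratios were not tested.

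**Figure D3:**
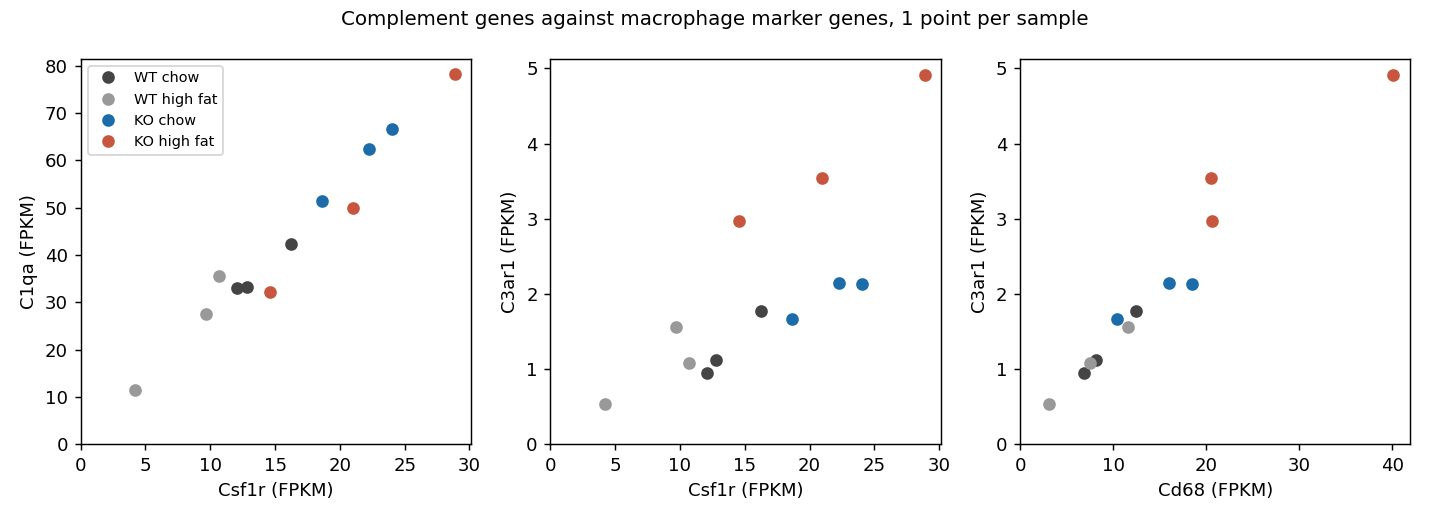
C1qa against Csf1r, C3ar1 against Csf1r and C3ar1 against Cd68 (FPKM on linear axes from 0, points are samples coloured by group). The KO samples on high fat diet had the highest C3ar1 per Csf1r, 0.169 to 0.203, against 0.102 to 0.161 in WT samples on high fat diet. C3ar1 per Cd68 was 0.116 to 0.173 over all samples.

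The markers of other sources of complement moved as follows. Hepatocyte markers summed to at most 8.08 FPKM in any library. Fibroblast markers summed to 523.3 to 812.2 FPKM in WT and 708.7 to 1138 FPKM in KO samples. C3 per Adipoq, the adipocyte hormone adiponectin, was 0.457 to 0.706 in the 6 KO samples and 0.340 to 6.27 in the 6 WT samples, the highest in WT high fat replicate 1. The part of adipocyte, fibroblast and macrophage content in the genotype differences of the members was not tested.

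Of 41 other complement genes, 25 passed the filter on low values. Their genotype differences averaged over the diets had a median of 0.45, against -0.02 over all genes. Fcna, the lectin pathway ficolin A, was the 1 that passed the test (1.18 ± 0.23, limma adjusted p = 0.0455), which 0.862% of all genes did. Its levels were 6.19 to 8.02 FPKM in the WT and 10.9 to 16.9 FPKM in the KO chow samples. On high fat diet its levels were 0.872 to 4.17 FPKM in WT and 5.91 to 10.4 FPKM in KO mice. Another 13 had an unadjusted limma p under 0.05 with a positive difference, against 13.1% of all genes. They were the classical proteases C1ra (0.66), C1rb (0.54), C1s (0.46), C1s2 (0.42) and C1rl (0.46), C4a (0.72), the alternative pathway protease factor D, Cfd (2.06), the terminal components C6 (0.72) and C7 (1.01), the C1 inhibitor Serping1 (0.73), and the receptors C5ar1 (0.74), Itgam (0.41) and Itgb2 (0.79). Masp1, a protease of the lectin pathway, was the 1 with a negative difference at that level (-0.37). C6 and C1rl reached 1 FPKM only in KO samples, with at most 0.464 and 0.867 FPKM in WT samples. Masp1 reached it only in WT samples, with at most 0.906 FPKM in KO samples. C6, C1rl and Masp1 thus passed the filter only through the genotype in which they were higher. Their part in these counts and in the median was partly set by the filter. Of the membrane inhibitors that shield host cells, 5 were tested and none had an unadjusted limma p under 0.05 for the difference averaged over the diets. The 95% confidence interval of the difference was -0.16 to 0.21 for Cd55, -0.20 to 0.20 for Cd59a and -0.10 to 0.17 for Cr1l. For Cd55 this average joined differences of opposite sign, -0.21 on chow (limma adjusted p = 0.352) and 0.26 on high fat diet (limma adjusted p = 0.297, unadjusted 0.0463). The interaction of 0.48 did not pass the test (limma adjusted p = 0.672, unadjusted 0.0151). Cd59a was 31.6 to 48.4 FPKM across the libraries.

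Cfd, the adipocyte protease adipsin that activates factor B, was the complement gene with the widest diet difference. It was 69.1, 468.8 and 328.3 FPKM in the WT chow samples, 2.77, 24.6 and 115.4 FPKM in the WT high fat samples, 1196, 576.8 and 1329 FPKM in the KO chow samples and 112.4, 59.9 and 98.5 FPKM in the KO high fat samples. The diet difference of Cfd was -3.30 ± 1.04 in WT mice (limma adjusted p = 0.320) and -3.46 ± 1.04 in KO mice (limma adjusted p = 0.390). Cfb, which encodes its substrate, had a diet difference of 0.37 ± 0.53 in KO mice (limma adjusted p = 0.765).

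Levels along the terminal pathway were uneven. C5, C8a, C8b and C9 were listed at no more than 0.138 FPKM in any library and C6 at no more than 2.01 FPKM, while C7 was the most abundant terminal gene at 3.78 to 29.9 FPKM. Among lectin pathway genes, Mbl1 and Mbl2 were listed at no more than 0.0454 FPKM. Cr2, the complement receptor of B cells, was 2.16 to 2.31 FPKM in the 3 libraries with high B cell markers and at most 0.0153 FPKM in the other 9.

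**Figure D4:**
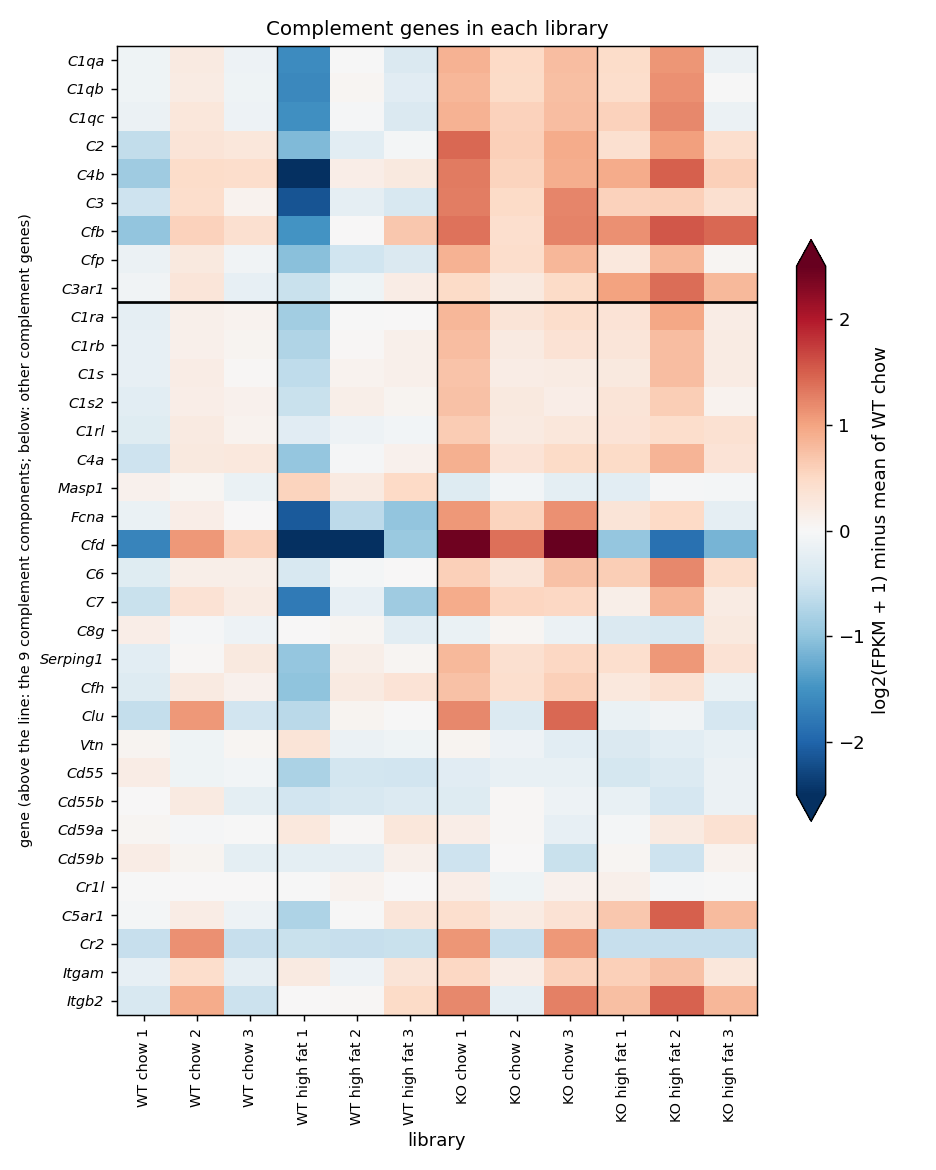
log2(FPKM + 1) of each complement gene minus its mean over WT mice on normal chow, by library, with the 9 members above the horizontal line and the 25 other genes that passed the filter below it (colours end at ± 2.5). WT high fat replicate 1 is the lowest column for all 9 members, and Cr2 is high in WT chow replicate 2 and KO chow replicates 1 and 3.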

How the data were processed

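RNA-seq of hind limb muscle was deposited as 1 file of FPKM per sample, which the authors made with TopHat2 2.0.8b and Cuffdiff 2.1.1 on mm10, per the submitters' processing notes. The annotation they used is not given in the sources used here. The files hold no counts, so the depth per sample is unknown; low values put relative depth within 1.36-fold. Groups followed titles. Of 23179 rows per file, the highest of repeated symbols was kept. Genes with at least 1 FPKM in at least 3 samples (11945, all 9 members included) were tested as log2(FPKM + 1) in limma 3.58.1 (R 4.3.3) with an intensity trend, over 4 group means, and Benjamini-Hochberg adjusted p under 0.05 was a call. Fold changes on this scale understate those of low genes. Simulated data with known changes were used to check the fit. Members and lists were chosen with earlier results of these data known. All members, and other complement genes past a threshold or the most abundant of a role, were named, with the 6 genes most correlated with C1q and with C3. Alternatives were a pseudocount of 0.1, no filter, median-of-ratios scaling, a replicate block, only the groups compared, and each sample left out. The median-of-ratios factors were 0.998 to 1.014, so that setting nearly repeats the main one. Summed FPKM was 1.06564e+07 in KO chow replicate 3 and 499509 to 691621 in the other libraries.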

Additional observations from a re-analysis of the deposited data

How the results depend on the processing

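For every member the genotype differences kept their sign, positive, under all settings tried on normal chow, on high fat diet and averaged over the diets. The number of members called in the averaged genotype comparison, 2 of 9, was 0 without the filter on low values, 0 with the replicate number as a block and 0 to 5 with 1 sample left out. Same-numbered samples did not deviate together in all pairs of any comparison, so the numbers were not taken to pair the samples, and the block changed no other count of calls. In comparisons chosen after the data had been seen, the count was 0 without the 3 libraries with high B cell markers and 0 without these and WT high fat replicate 1. The high fat genotype comparison, with 0 calls, gave 0 to 1 with 1 sample left out and 1 under quantile normalization, also chosen afterwards. The diet and interaction comparisons gave 0 calls under every setting run.

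Some diet differences changed sign. With 1 sample left out, the WT diet difference ran from -1.44 to 0.20 for C4b, -0.76 to 0.34 for Cfb and -0.33 to 0.0341 for C3ar1. The KO diet difference ran from -0.56 to 0.0633 for C1qa, -0.47 to 0.11 for C1qb, -0.53 to 0.14 for C1qc and -0.16 to 0.29 for C4b. The averaged diet difference ran from -0.68 to 0.14 for C4b and -0.20 to 0.36 for Cfb. The interaction ran from -0.0572 to 0.72 for C1qa, -0.0415 to 0.78 for C1qb, -0.0132 to 0.78 for C1qc, -0.22 to 0.40 for C2, -0.12 to 1.52 for C4b and -0.16 to 0.81 for C3. Without the 3 libraries with high B cell markers, the WT diet difference of Cfb was 0.0229, and the KO diet differences were 0.0452 for C1qb, 0.0127 for C2 and 0.0382 for C3. Quantile normalization gave -0.0240 for C4b in KO mice. The cause was not tested. With 3 samples a group and no counts, differences of about the spread within groups could not be told from 0.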
